A study of Mus musculus with 6 samples.

Results

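The 10 genes described here are the immediate early transcription factor genes Egr1, Egr2, Egr3, Fos, Fosb, Fosl1, Fosl2, Jun, Junb and Jund, chosen by symbol out of 46603 genes in the count tables. All 10 were found under a single Ensembl identifier each, and all 10 passed the filter on low counts, as did 14721 genes in all. The RNA came from lower-incisor enamel organ cells of C57BL/6 mice. There were 3 libraries labelled as a Stim1/2 knockout (DKO 1, DKO 3 and DKO 4) and 3 labelled wild type (WT 1, WT 2 and WT 3). Cells went straight from isolation into lysis buffer, per the protocol in the labels. No treatment is named for either group, and the labels used here give no age, sex or Cre driver and do not say whether each library is a separate mouse, so the p-values measure the spread between these libraries, which may be technical. As known of the study, though not stated in its labels, the deletion is made in epithelium by a Krt14-driven Cre, and the other cells of the organ keep both genes.

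Immediate early genes are transcribed within minutes of a stimulus, without new protein synthesis, by factors that wait at their promoters: serum response factor with its ETS partners downstream of ERK, and CREB downstream of calcium and cyclic AMP. FOS proteins (Fos, Fosb, Fosl1, Fosl2) bind DNA only as partners of JUN proteins (Jun, Junb, Jund), and the pair is called AP-1, while EGR proteins bind GC-rich sites through zinc fingers and are restrained by the corepressors NAB1 and NAB2. STIM1 and STIM2 sense calcium in the endoplasmic reticulum and open ORAI channels when that store empties, and calcium that enters this way drives calcineurin and NFAT, which in lymphocytes induce Egr2 and Egr3. The same genes are known to respond to tissue handling and cell dissociation, so their spread between libraries is given beside each comparison.

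Totals ran from 18609759 to 22829411 counts per library. Stim1 stood at 29.6% and Stim2 at 46.8% of the WT mean in DKO, and no DKO library reached the lowest WT library for either gene. Normalised levels are given as CPM, counts scaled to library size by TMM. Xist ranged from 488 to 913 CPM in DKO 1 and in WT 1 and 2 and did not exceed 1.22 CPM in the other libraries. By this gene alone both groups seem to mix the sexes, unequally, but the labels give no sex. The ameloblast markers Ambn (51246 ± 14774 CPM in WT, 73354 ± 14704 in DKO) and Amelx (48665 ± 17901 and 57654 ± 20425; SD, n = 3 each) were among the most abundant genes of every library. Libraries also held RNA of other cells, with the summed level of 6 mesenchyme markers, led by Col1a1 and Col1a2, at 6619 to 10922 CPM in WT and 10294 to 12774 in DKO.

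The promoters of Fos, Junb and Fosl2 are shown because these 3 genes, with Egr3, had DKO libraries wholly on one side of the WT libraries, Fos and Junb above and Fosl2 below. Each sequence is the 250 bases before the RefSeq start site on GRCm38.p6, 5′ to 3′ on the gene's strand, and capitals mark a match to one of the motifs searched on both strands. RefSeq promoters matched 7 of the 10 genes (Egr2, Fos, Fosb, Fosl2, Jun, Junb and Jund). The Fosl2 window lies inside the gene as placed in the deposited tables, where Fosl2 starts at 32135801, upstream of this RefSeq start site.
Fos (chr12:85473640-85473889, plus strand): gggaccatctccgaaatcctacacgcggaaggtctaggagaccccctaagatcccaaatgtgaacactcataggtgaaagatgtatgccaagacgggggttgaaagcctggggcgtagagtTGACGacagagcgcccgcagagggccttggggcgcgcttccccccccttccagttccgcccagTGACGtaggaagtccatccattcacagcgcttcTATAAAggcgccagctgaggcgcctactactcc
Junb (chr8:84978749-84978998, minus strand): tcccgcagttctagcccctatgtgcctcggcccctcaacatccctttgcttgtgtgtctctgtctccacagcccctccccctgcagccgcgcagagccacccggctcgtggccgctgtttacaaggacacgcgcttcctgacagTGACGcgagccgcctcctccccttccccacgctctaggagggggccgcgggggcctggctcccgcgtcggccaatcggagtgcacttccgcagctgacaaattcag
Fosl2 (chr5:32136222-32136471, plus strand): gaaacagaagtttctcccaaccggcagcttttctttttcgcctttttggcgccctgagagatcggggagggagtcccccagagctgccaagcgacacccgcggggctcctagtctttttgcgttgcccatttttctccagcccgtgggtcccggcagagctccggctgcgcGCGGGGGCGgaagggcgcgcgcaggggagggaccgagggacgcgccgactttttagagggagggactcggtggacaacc

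The 5 bases TGACG, the shared core of CREB and ATF sites and also contained in the longer cyclic AMP response element, occurred in the windows of Fos, with 2 matches, and Junb, with 1, and not in that of Fosl2. They occur in 17.7% of all 32817 RefSeq windows of the same length. The EGR motif GCGNGGGCG occurred in the Fosl2 window, and in 4.70% of all windows. Fos also held TATAAA, present in 12.4% of windows. The full cyclic AMP response element TGACGTCA (1.55% of windows), the AP-1 motif TGANTCA (6.75%) and the CArG box bound by serum response factor (1.47%) had no match in these 3 windows. Bases further than 250 from the start site were not searched, so the promoters may hold these motifs outside the windows. These matches are descriptions of letters, not of bound sites.

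Compared per length, the JUN genes and Fosl2 were the abundant members and the inducible Egr2 and Fosb the scarcest. Deposited FPKM (fragments per kilobase of transcript, scaled to sequencing depth), averaged over the 6 libraries, were 67.7 for Junb, 45.3 for Fosl2, 42.6 for Jund, 38.1 for Jun, 16.6 for Egr1, 10.4 for Fos, 1.64 for Egr3, 0.991 for Fosl1, 0.511 for Fosb and 0.330 for Egr2. Junb stood above 92.5% of the tested genes and Egr2 above 4.90%. Fosl2, Jund and Jun followed each other within their spread, since the lowest Fosl2 library (37.7 FPKM) lay below the highest Jund (56.2) and Jun (46.6) libraries. Egr1 and Fos came close too, the lowest Egr1 library (10.9) lying below the highest Fos library (11.9). For Egr2 the authors' lower FPKM bound was 0 in 5 of 6 libraries, so its level per length is poorly set.

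Within the FOS family, Fosl2, which encodes FRA-2, a member without the strong activation domain of FOS, made up 82.1% ± 3.49 of the family's summed FPKM in WT and 75.3% ± 0.878 in DKO (SD, n = 3 each). The share of Fos was 15.1% ± 2.63 in WT and 22.3% ± 0.296 in DKO. By library the Fos share was 12.7%, 14.8% and 18.0% in WT 1, WT 2 and WT 3 and 22.2%, 22.0% and 22.6% in DKO 1, DKO 3 and DKO 4, with no overlap. Junb held 41.5% ± 3.38 of the JUN family's FPKM in WT and 49.3% ± 2.88 in DKO. The summed FOS family stood at 0.451 ± 0.0557 of the summed JUN family in WT and 0.329 ± 0.0409 in DKO (SD, n = 3 each). In the EGR family Egr1 held 92.1% ± 1.78 in WT and 87.1% ± 1.98 in DKO, and Egr3 6.33% ± 1.99 and 11.0% ± 1.60. These shares are descriptions of 3 libraries a group and were not tested.

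**Figure D1:**
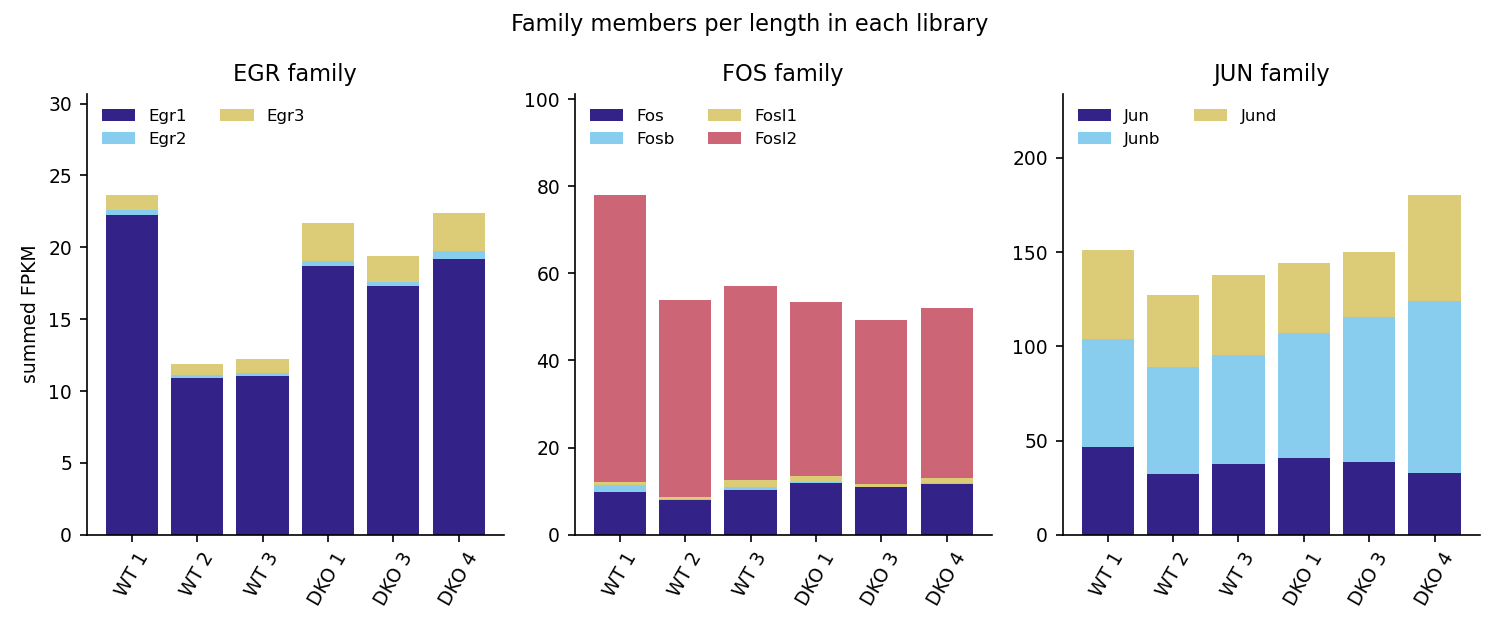
Summed FPKM (y axis) of the EGR, FOS and JUN families in each of the 3 WT and 3 DKO libraries (x axis), stacked by gene. Fosl2 fills most of the FOS bars, WT 1 has the tallest FOS bar at 77.9 FPKM, and DKO 4 has the tallest JUN bar at 180.1 FPKM.

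The main comparison asked whether loss of STIM1 and STIM2 went with altered RNA of these genes. Of the 10 members, 1 rose in DKO (Egr3), 0 fell and 9 did not pass the edgeR quasi-likelihood test at an adjusted p of 0.05 over all 14721 genes. Over all tested genes 1.04% were called in either direction, 0.734% higher and 0.306% lower. The median log2 fold change of the 10 members was 0.16, with 5 above 0 and 5 below, and that of all tested genes was -0.01. At an unadjusted p under 0.05, 4 of the 10 members passed, as did 18% of all tested genes. The groups of libraries did not overlap for 4 of the 10 (Egr3, Fos and Junb with DKO above WT, Fosl2 with DKO below), against 23.3% of all tested genes. Other settings, with the share of all genes they called, gave 1 member with upper-quartile scaling (1.19%), 0 with total counts (1.13%), 2 with no low-count filter (Egr3 and Junb, 2.19%), the same 2 by the DESeq2 Wald test (6%) and 0 of 7 with a mean of at least 50 counts (0.889%). They gave 0 by limma on unfiltered FPKM (0.0424%), 0 with the Xist term (0.482%) and 0 without WT 2 (2.23%). With a replicate block the 1 member called was Fosb, lower in DKO (2.23%), and without DKO 1 it was Junb, higher (0.677%), and Egr3 passed in neither. The block left WT 2 and DKO 4 out of the group difference, as neither number occurs in the other group.

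**Figure D2:**
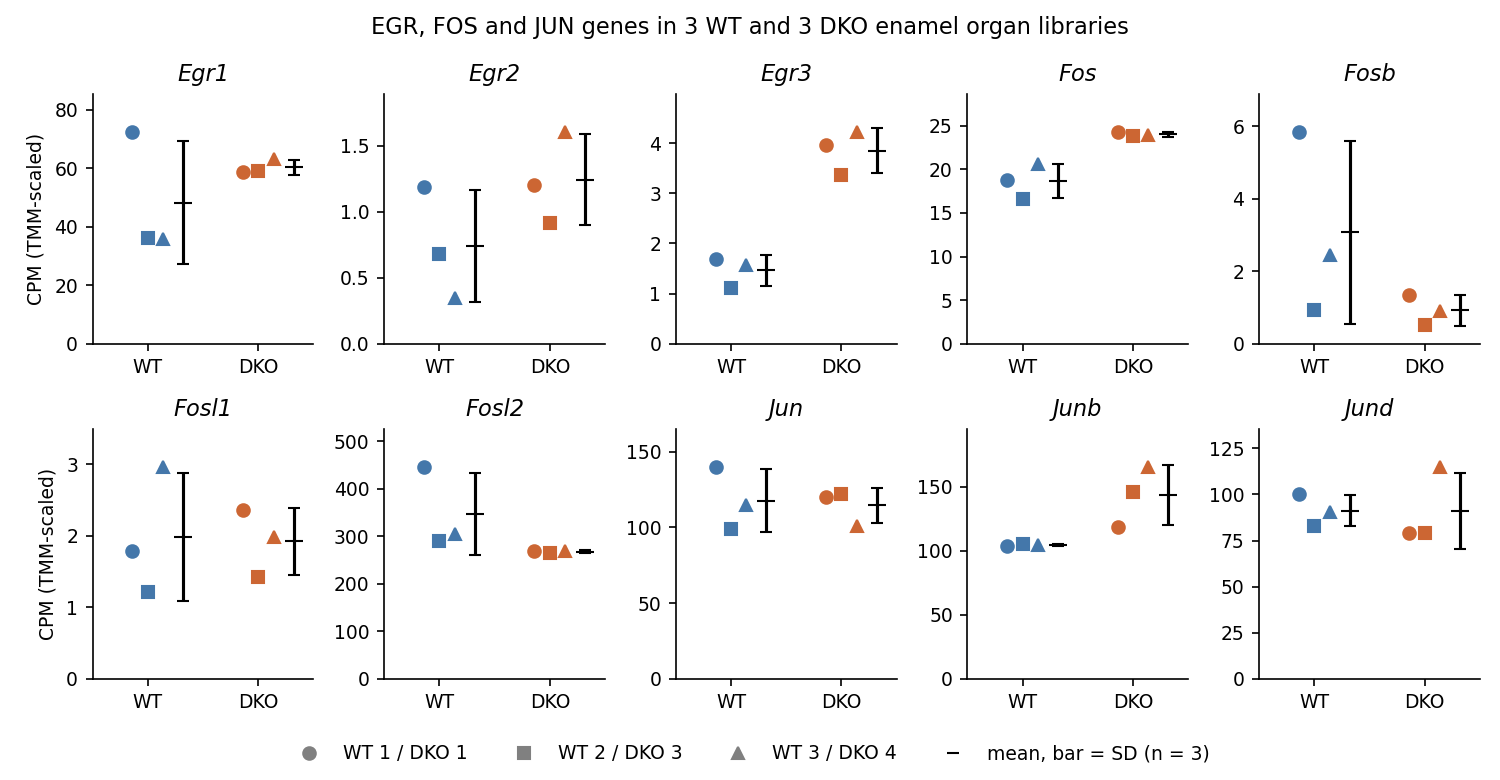
CPM (y axis, from 0) of the 10 genes in each library, WT in blue and DKO in orange, with the mean and SD of 3 libraries in black; a shared symbol does not pair libraries. Egr3, Fos and Junb have all DKO libraries above all WT libraries, Fosl2 all below, and WT 1 stands well above WT 2 and WT 3 for Egr1, Fosb and Fosl2.

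Egr3 (ENSMUSG00000033730, GRCm38 chromosome 14, 70077445 to 70080157 in the deposited tables, plus strand, protein coding), a zinc-finger factor that NFAT and serum response factor can induce, was the member that rose. It stood at 1.70, 1.11 and 1.57 CPM in WT 1, WT 2 and WT 3 and at 3.96, 3.36 and 4.23 CPM in DKO 1, DKO 3 and DKO 4. The lowest DKO library was thus well above the highest WT library, at a low level of 23 to 79 counts per library. The log2 fold change was 1.39 (SE 0.24, 95% interval 0.84 to 1.94, edgeR adjusted p = 0.0455), or 2.64-fold higher in DKO. The call was close to the threshold and ended whichever library was left out, with adjusted p from 0.0575 to 0.170 and fold changes from 1.23 to 1.52, and likewise when Xist-high libraries got a term of their own (0.0983) or the replicate number entered as a block (0.132). It was 0.000353 by the DESeq2 Wald test, the lowest of the 18 alternatives, and 0.211 by limma on unfiltered FPKM, the highest.

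Egr1 (ENSMUSG00000038418, chromosome 18, 34859823 to 34864984, plus strand), the founding EGR factor and a standard readout of ERK signalling, turned on a single WT library. It stood at 72.5, 36.3 and 36.0 CPM in WT 1, WT 2 and WT 3 and at 58.8, 59.0 and 63.2 CPM in DKO 1, DKO 3 and DKO 4. WT 1 was the highest of all 6 libraries, whereas WT 2 and WT 3 lay below every DKO library. Over all libraries the log2 fold change was 0.32 (SE 0.26, 95% interval -0.28 to 0.92, edgeR adjusted p = 0.561) and it did not pass. Without WT 1 it was 0.74 (SE 0.08, adjusted p = 0.0262) and it passed, in a fit that called 0.561% of its genes. Over the 18 alternatives this was the one fit that called Egr1, whose adjusted p otherwise ran up to 0.824.

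Egr2 (ENSMUSG00000037868, chromosome 10, 67535475 to 67542188, plus strand), best known for its part in Schwann cell myelination and in T cells, was near the detection limit. It had 28, 14 and 8 counts in WT 1, WT 2 and WT 3 and 24, 18 and 30 counts in DKO 1, DKO 3 and DKO 4. On the CPM scale the groups overlapped, with WT 1 at 1.19 CPM above DKO 3 at 0.917 CPM. Its log2 fold change was 0.74 (SE 0.47, 95% interval -0.35 to 1.82, edgeR adjusted p = 0.457) and did not pass.

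Fos (ENSMUSG00000021250, chromosome 12, 85473890 to 85477273, plus strand), the prototype AP-1 partner whose promoter is given above, was narrowly spread in DKO. It stood at 18.8, 16.6 and 20.6 CPM in WT 1, WT 2 and WT 3 and at 24.3, 23.8 and 24.0 CPM in DKO 1, DKO 3 and DKO 4. All DKO libraries were above all WT libraries, and the highest DKO library was 1.02 times the lowest. With 448 to 485 counts in 3 libraries, so small a spread is itself poorly estimated. The log2 fold change was 0.36 (SE 0.10, 95% interval 0.13 to 0.60) and missed the threshold (edgeR adjusted p = 0.135, from 0.0692 to 0.442 over the alternatives). It stayed above 0 in all 18 alternatives and passed in 0 of them.

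Fosb (ENSMUSG00000003545, chromosome 7, 19302721 to 19310045, minus strand), an inducible FOS paralog, had the largest fold change of the 10 by size and the widest error. It had 138, 19 and 56 counts in WT 1, WT 2 and WT 3, or 5.85, 0.921 and 2.44 CPM, and 27, 10 and 17 counts in DKO 1, DKO 3 and DKO 4, or 1.35, 0.510 and 0.909 CPM. WT 1 was 6.36 times WT 2, and WT 2 lay within the range of the DKO libraries. The log2 fold change was -1.73 (SE 0.66, 95% interval -3.27 to -0.19, edgeR adjusted p = 0.230) and did not pass. It was -0.86 without WT 1 and -2.16 without WT 2 (adjusted p = 0.497 and 0.0870). A fit with the replicate number as a block was the one alternative that called Fosb, at -2.17 (SE 0.35, edgeR adjusted p = 0.0368). Its group difference rested on WT 1, WT 3, DKO 1 and DKO 3 alone. The numbers of WT 2 and DKO 4 do not occur in the other group.

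Fosl2 (ENSMUSG00000029135, chromosome 5, 32135801 to 32157842, plus strand) was the most counted member. It stood at 446, 291 and 304 CPM in WT 1, WT 2 and WT 3 and at 269, 264 and 269 CPM in DKO 1, DKO 3 and DKO 4. All DKO libraries were below all WT libraries, WT 1 by the most, while the DKO libraries differed from each other by a factor of 1.02. The log2 fold change of -0.38, with an SE of 0.16, did not pass (edgeR adjusted p = 0.277). Without WT 1 it was -0.15 (SE 0.09, edgeR adjusted p = 0.452), against -0.38 with all libraries, so much of its size rested on WT 1.

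Fosl1 (ENSMUSG00000024912, chromosome 19, 5447703 to 5455945, plus strand), which encodes FRA-1, ranged from 1.21 to 2.96 CPM in WT and from 1.43 to 2.36 CPM in DKO. The ranges overlapped fully and the log2 fold change was -0.05 (SE 0.37, 95% interval -0.91 to 0.81, edgeR adjusted p = 0.957), above 0 without WT 3 (0.36) or without DKO 3 (0.12). In GENCODE vM21 its exons share 1163 bases with those of Ccdc85b on the opposite strand, and the library kit does not mark strand, so its low count is uncertain.

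Junb (ENSMUSG00000052837, chromosome 8, 84976909 to 84978748, minus strand), an AP-1 subunit that can restrain JUN, was even in WT and spread in DKO. It stood at 104, 105 and 105 CPM in WT 1, WT 2 and WT 3 and at 119, 146 and 165 CPM in DKO 1, DKO 3 and DKO 4. All DKO libraries were above all WT libraries. The log2 fold change was 0.46 (SE 0.12, 95% interval 0.19 to 0.73) and missed the threshold by edgeR (adjusted p = 0.112, from 0.0161 to 0.306 over the alternatives). Junb passed without DKO 1 (0.58, adjusted p = 0.0491), by the DESeq2 Wald test (0.0161) and without a low-count filter (0.0449).

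Jun (ENSMUSG00000052684, chromosome 4, 95049034 to 95052222, minus strand), the main partner of FOS, stood at 140, 98.6 and 115 CPM in WT 1, WT 2 and WT 3 and at 120, 122 and 101 CPM in DKO 1, DKO 3 and DKO 4. Its DKO libraries lay inside the WT range, with a log2 fold change of -0.04 (SE 0.14, 95% interval -0.36 to 0.28, edgeR adjusted p = 0.907) that was 0.11 without WT 1. Jund (ENSMUSG00000071076, chromosome 8, 70697739 to 70700616, plus strand), the JUN gene least dependent on stimulation, stood at 100, 83.2 and 90.5 CPM in WT and 78.9, 79.0 and 115 CPM in DKO. DKO 4 was its highest library and the other DKO libraries its lowest, and the log2 fold change was below 0.01 in size (SE 0.15, 95% interval -0.36 to 0.35, edgeR adjusted p = 0.990). Its sign turned with 2 scalings of the libraries, DESeq2 size factors and upper quartile. Exons of Jun share 232 bases with the antisense RNA Junos, which had 4 to 24 counts, and exons of Jund share 877 bases with Gm11175, which had 0 counts in every library.

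**Figure D3:**
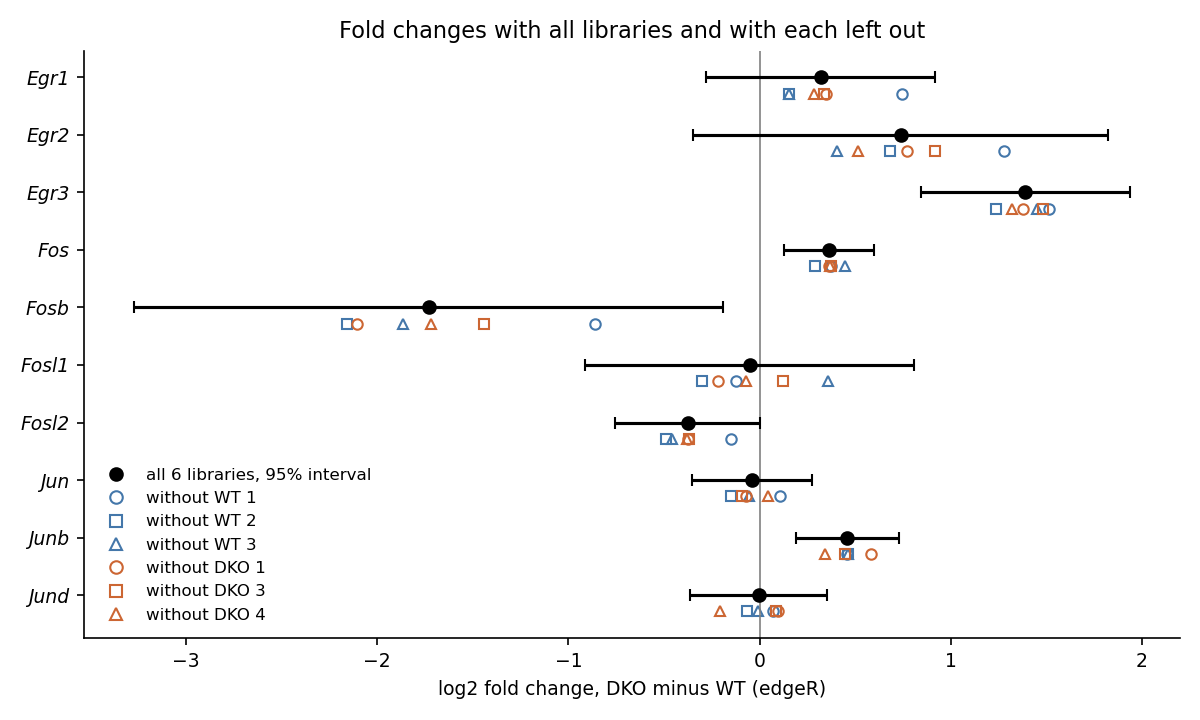
Log2 fold change, DKO minus WT (x axis), of the 10 genes (y axis) by edgeR over all 6 libraries with its 95% interval (black), and with each library left out (open symbols). Leaving out WT 1 shifts Egr1 to 0.74, Fosb to -0.86 and Fosl2 to -0.15, whereas Egr3 stays between 1.23 and 1.52.

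Spread between libraries of a group was uneven over the members. As the pooled SD of log2 CPM, it was 1.01 for Fosb, 0.60 for Egr2, 0.50 for Fosl1 and 0.41 for Egr1, higher than in 98.6%, 93.2%, 89.3% and 84.2% of all tested genes. The first 3 of these had at most 138 counts in any library. Fos was at 0.11, within the lower part of all tested genes (percentile 30.9), and the other 5 lay between 0.17 and 0.24, against a median of 0.16 over all tested genes. For 8 of the 10 members WT libraries spread more than DKO libraries, as they did for 57.9% of all tested genes. Junb and Jund went the other way. Each spread rests on 3 libraries a group, so very small ones, such as Fos in DKO or Junb in WT, are poorly estimated.

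WT 1 was the highest WT library for 7 of the 10 members, against 35.9% of all tested genes, and the highest of all 6 libraries for 4 of them (Egr1, Fosb, Fosl2 and Jun), against 20.8%. Among the 28 other immediate early genes described below, WT 1 was the highest WT library for 12 (42.9%) and WT 2 for 13 (46.4%). WT 2 was the highest library for 0 members and the lowest for 4. DKO 4 was the highest of all 6 for 4 (Egr2, Egr3, Junb and Jund), against 16.3% of all tested genes. Other measures also set WT 1 apart. Its 2 most abundant genes took 6.86% of its counts, where the other libraries had 10.7% to 15.8%. Its summed ameloblast (95834 CPM), neutrophil (2.38 CPM) and Schwann and nerve markers (5.47 CPM) were the lowest of the 6 libraries. Its summed dental epithelium (10264 CPM) and oral keratinocyte markers (447 CPM) were the highest of the 6. The part of these measures in the high Egr1, Fosb and Fosl2 of WT 1 was not tested.

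**Figure D4:**
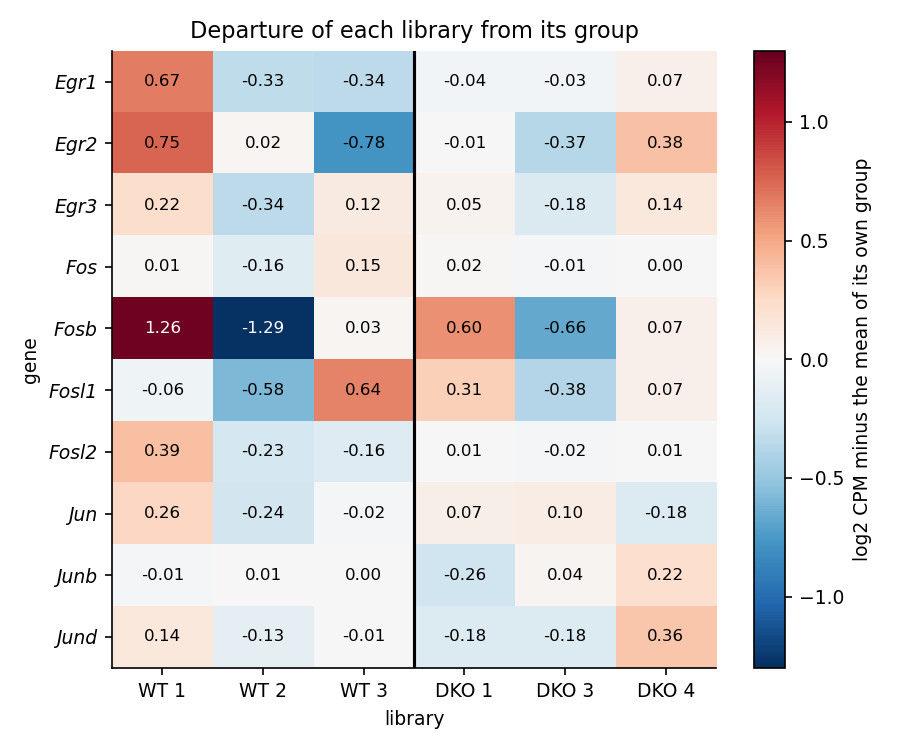
Log2 CPM of each gene (rows) in each library (columns) minus the mean of its own group, from blue (below) to red (above). The WT 1 column is above its group for most genes, with Fosb at 1.26 and Egr1 at 0.67, and DKO libraries depart little for Fos and Fosl2.

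Heat shock genes, which dissociation and handling also induce, were read beside the members. Of 11 tested, 0 passed the edgeR test, 10 had a log2 fold change below 0, and their median was -0.17. Over all tested genes 48.7% were above 0. An unadjusted edgeR p under 0.05 was reached by 3 of the 11, as by 18% of all tested genes. In 4 of the 11 all DKO libraries were below all WT libraries, against 11.8% of all tested genes. Their summed level was 3384, 3604 and 3020 CPM in WT 1, WT 2 and WT 3 and 3126, 2785 and 2932 CPM in DKO 1, DKO 3 and DKO 4. In this sum the groups overlapped, and WT 2 was highest. The part of handling in these values was not tested. The most abundant were the chaperone genes Hsp90ab1 (1199 ± 112 CPM in WT, 1118 ± 41.5 in DKO) and Hspa8 (941 ± 110 and 809 ± 93.1; SD, n = 3 each). Hspa1a and Hspa1b are near-identical copies, so the division of reads between them is uncertain.

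Among 28 other immediate early genes, all tested, 1 rose, 0 fell and 27 did not pass. The gene that rose was Ctgf, which encodes the matricellular growth factor CCN2, a target of YAP and serum response factor. It stood at 15.5, 11.0 and 9.94 CPM in WT 1, WT 2 and WT 3 and at 33.6, 24.9 and 23.4 CPM in DKO 1, DKO 3 and DKO 4, with no overlap. The fold change on the log2 scale was 1.17, with an SE of 0.20 and an edgeR adjusted p of 0.0497, a call that held without WT 1 (adjusted p = 0.0377) and ended when any other library was dropped (0.0713 to 0.130). The median of the 28 was 0.12, with 19 above 0 and 9 below, where all tested genes had 48.7% above 0. The most abundant, Sgk1, a serum- and glucocorticoid-induced kinase gene, averaged 830 ± 148 CPM in WT against 932 ± 97.6 in DKO, and the small GTPase gene Rhob at 156 ± 40.5 and 183 ± 36.3 (SD, n = 3 each), neither of which passed.

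The 2 largest fold changes below 0 in that list, Nr4a3 and Myc, were picked out after their values were seen. Nr4a3, an orphan nuclear receptor gene that calcium and NFAT induce in lymphocytes, stood at 15.1, 8.29 and 7.85 CPM in WT 1, WT 2 and WT 3 and at 2.81, 3.87 and 4.12 CPM in DKO 1, DKO 3 and DKO 4. The groups did not overlap, WT 1 was again highest, and the log2 fold change of -1.54 (SE 0.29) missed the edgeR threshold (adjusted p = 0.0609, from 8.37e-05 to 0.291 over the alternatives). Myc, the growth regulator, stood at 41.4, 18.6 and 31.4 CPM in WT and 16.5, 9.63 and 11.8 CPM in DKO, and its log2 fold change was -1.27 with an SE of 0.31 (adjusted p by edgeR 0.101, from 0.000975 to 0.383 over the alternatives). Of the 28 genes, 5 had all DKO libraries above WT and 3 all below, against 11.4% and 11.8% of all tested genes.

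**Figure D5:**
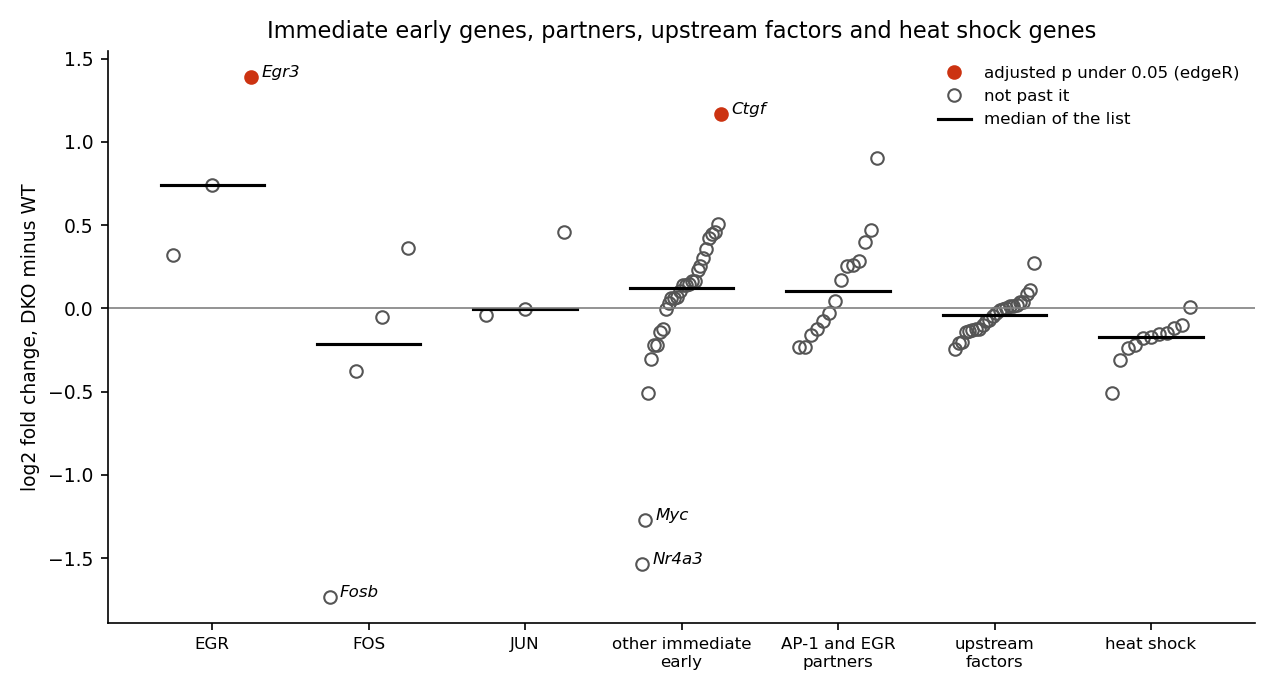
Log2 fold change, DKO minus WT (y axis), of every tested gene in the EGR, FOS and JUN families and 4 lists of related genes (x axis), with list medians as bars and called genes filled in red. Egr3 and Ctgf are the called genes, and Fosb, Nr4a3 and Myc lie lowest.

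Partners and upstream factors showed no called gene. Of 16 AP-1 and EGR partners 14 were tested, Egr4 and Batf2 being too low, and 0 passed, with a median log2 fold change of 0.11. The large MAF gene Maf (483 ± 85.0 CPM in WT, 498 ± 56.5 in DKO; SD, n = 3 each) was the most abundant. Of 24 genes upstream, from ERK, JNK and p38 kinases to serum response factor, its ETS and MRTF partners and CREB, 0 passed and the median was -0.04. Map2k2, which encodes the ERK kinase MEK2, averaged 139 ± 0.463 CPM in WT against 138 ± 7.11 in DKO (SD, n = 3 each). RNA levels of kinases do not report their activity.

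Likeness of pattern was measured as the root mean square difference of log2 CPM, centred on each gene's mean over the 6 libraries, among 12145 other genes with a mean of at least 50 counts. The 5 genes nearest to Fos were Fbxw17, Mmp14, Gnb4, Man1c1 and Nab2, the last an EGR corepressor gene, at 0.039 to 0.055. Mmp14, a membrane-bound matrix protease gene, stood at 529, 485 and 559 CPM in WT and 673, 665 and 642 CPM in DKO. The 5 nearest to Egr1 were Tmem180, Atf3, Nt5e, Mdfic and Htr2b, at 0.131 to 0.163. Atf3, a stress-induced bZIP gene, shared the high WT 1, with 11.3, 7.17 and 6.67 CPM in WT and 10.6, 9.73 and 9.63 CPM in DKO.

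The 5 nearest to Egr3 were Egflam, Lypd3, Gfra2, Tnmd and Dusp6, at 0.136 to 0.213. Of these, Egflam, Lypd3, Tnmd and Dusp6 were also called by edgeR, with adjusted p from 0.0135 to 0.0455. Genes chosen for likeness to Egr3 share its difference between the groups by that choice, so their calls are no separate result. Dusp6, an ERK phosphatase gene that ERK itself induces, stood at 49.7, 26.4 and 30.9 CPM in WT 1, WT 2 and WT 3 and at 83.9, 96.1 and 103 CPM in DKO 1, DKO 3 and DKO 4, a log2 fold change of 1.40 (edgeR adjusted p = 0.0380). The nearest member to both Fos and Egr3 was Junb, at 0.177 and 0.515, and the nearest to Egr1 was Jun, at 0.327. Among all genes compared, these nearest members ranked 1618 for Fos, 598 for Egr3 and 960 for Egr1.

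Summed levels of some marker lists did not overlap between the groups, as was so for 23.3% of all tested genes taken singly. Summed over each list, endothelium markers were at 178 to 238 CPM in WT and 265 to 275 in DKO, and mural markers at 428 to 572 and 619 to 731, both without overlap and with DKO above. Kdr and Cdh5 were the most abundant of the 6 endothelium markers and Rgs5 and Cspg4 of the 4 mural markers, and 0 of these 10 genes passed the edgeR test. Dental epithelium markers were at 8767 to 10264 CPM in WT and 6714 to 6824 in DKO, and oral keratinocyte markers at 264 to 447 and 89.9 to 130, both with DKO below. Krt5 and Krt14 gave most of the dental epithelium sum. Of its 7 genes, 4 had all DKO libraries below WT, against 11.8% of all tested genes, and Krt15, Sp6 and Cdh1 overlapped. Ameloblast markers overlapped in sum, at 95834 to 162004 CPM in WT and 137372 to 205085 in DKO, with 6 fold changes above 0 and 1 below. Krt6a alone gave most of the oral keratinocyte sum, at 230 to 418 CPM in WT and 60.6 to 109 in DKO. The keratin gene Krt6a (328 ± 94.1 CPM in WT, 84.9 ± 24.0 in DKO, edgeR adjusted p = 0.0216; SD, n = 3 each) fell, whereas Krt5 (4339 and 2992 CPM on average) and Krt14 (4084 and 2956) did not pass. All of these cell types can express AP-1 and EGR genes, fewer cells of a type and less RNA per cell cannot be told apart in bulk RNA, and the part of the marker lists in the members' values was not tested.

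The other most abundant oral keratinocyte marker, Krt76, did not pass, and its mean was higher in DKO (12.9 ± 3.46 CPM in WT, 15.9 ± 4.76 in DKO; SD, n = 3 each). Of the 6 tested markers of that list, 5 had a log2 fold change below 0 and 1 above. Krt13 and Krt4 overlapped between the groups. Leukocyte markers (126 to 184 CPM in WT, 176 to 215 in DKO), neutrophil markers (2.38 to 72.9 and 9.02 to 19.3), skeletal muscle markers (62.8 to 243 and 48.1 to 139), erythroid markers (140 to 432 and 134 to 391) and Schwann and nerve markers (5.47 to 12.2 and 6.32 to 8.35) overlapped between the groups. The 2 most abundant genes of the first 4 lists were Cd74 and Csf1r, S100a9 and S100a8, Myh4 and Acta1, and Hbb-bs and Hba-a1, in the same order, and none of the genes of these 5 lists that were tested passed. The Schwann cell factor gene Sox10 had 0 counts in a library of each group.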

How the data were processed

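Libraries were made with the TruSeq RNA v2 kit, which does not mark strand, per the labels' protocol. The authors deposited 1 table of raw read counts per Ensembl gene and 1 table of FPKM values for each library, the latter with Cufflinks columns per the file headers. The submitters' processing notes name GRCm38, Trimmomatic 0.32, Cufflinks 2.2 and HTSeq, and neither the aligner nor the annotation release or counting options are stated there.

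Genes were mapped from symbol to Ensembl identifier through the FPKM tables. Counts were tested in R 4.3.3 with edgeR 4.0.16 (filterByExpr, TMM, quasi-likelihood test, Benjamini-Hochberg adjustment over all 14721 genes, threshold 0.05), in a fit of 3 DKO against 3 WT libraries with no covariate. SE was derived from the fold change and the F statistic. Alternatives were other scalings and filters, DESeq2 1.42.0, limma 3.58.1 on log2(FPKM + 1) and log2(FPKM + 0.1), a replicate block, a covariate marking Xist over 100 CPM, and leaving out each library. Every pair of libraries differed by more than sampling noise. The scripts were tested on simulated data. Named genes were the 10 members, from each list every called gene up to 4 and the 2 with the highest mean CPM, and the 5 nearest in pattern to Fos, Egr1 and Egr3. Members and lists were chosen with earlier results of these data known. Promoter windows were from RefSeq, and exon overlaps from GENCODE vM21. Some genes that this rule names are not reported here.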

Additional observations from a re-analysis of the deposited data

How the results depend on the processing

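Over all genes, 153 were called (108 higher, 45 lower in DKO). The count was 866 by DESeq2's Wald test, 554 when low counts were not filtered, 77 by limma on log2(FPKM + 1) and 77 on log2(FPKM + 0.1), 11 by limma without a filter, 71 with the Xist term, and 21 to 335 with 1 library left out, lowest without DKO 4 and highest without WT 2. Among the members the count of 1 was 0 with total counts, with a mean of at least 50 counts (7 members tested), with the Xist term and in each limma fit (8 members tested, without Egr2 and Fosb, where low FPKM were filtered), and 2 (Egr3 and Junb) with no filter and by DESeq2. With 1 library left out it was 0 to 1, the 1 being Junb without DKO 1 and Egr1 without WT 1. With a replicate block 328 genes were called (132 higher, 196 lower, 100 shared with the 153), and of the members Fosb (-2.17, edgeR adjusted p = 0.0368) and not Egr3 (adjusted p = 0.132). In that fit WT 2 and DKO 4 did not bear on the group difference. Same-numbered libraries correlated in their deviations at 0.23 (number 1) and -0.01 (number 3), so the numbers were not taken as pairs. The sign turned for Jund with DESeq2 size factors (0.00070), upper-quartile scaling (0.018), no filter (0.00054) and the DESeq2 Wald test (0.00094), and for Fosl1 by limma (0.033 with a pseudocount of 1, filtered or not, and 0.098 with 0.1). With 1 library left out, Jund ran from -0.21 to 0.095, Fosl1 from -0.30 to 0.36 and Jun from -0.15 to 0.11. The cause of these shifts was not tested. Egr2, Egr3, Fosb and Fosl1 rest on at most 138 counts per library, which limits their precision.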

Other observations

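Promoter windows of members not shown above also held matches. For Egr2, RefSeq gives 5 start sites, and the windows of 4 of them held a CArG box. The windows of 3 of these overlap and share the same CArG box and the same TGACG matches, which lie on both strands, so the 4 windows hold 2 distinct CArG boxes. The Fosb window held TGACG and GCGNGGGCG. The windows of Jun and Jund held none of the motifs searched.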
